A study of Drosophila melanogaster with 39 samples.

Results

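CP190 and Su(Hw), a pair of proteins of the *gypsy* insulator of *Drosophila*, were compared site by site in control cells. The comparison rests on 6 of the 39 samples of the series, 3 CP190 and 3 Su(Hw) ChIP-seq libraries, chosen as the libraries with a peak list from cells given mcherry dsRNA. The 30 samples with lists form 10 groups, and the other 24 lists come from Cul4 ChIP or from cells depleted of Eff or Cul4 and were not used here. All 6 libraries come from Kc167 cells, a line of hemocyte (blood cell) type grown from embryos, kept for 4 days after the mcherry dsRNA, which has no target in the fly genome. CP190 was recovered with a rabbit antibody and Su(Hw) with a guinea pig antibody, both made in the laboratory, so effects of the protein and of the antibody cannot be told apart. Peak lists hold no expression, so the cell type could not be checked against its marker genes, and results hold for 1 cell line. The labels call the 3 libraries of each group biological replicates and do not tie a CP190 replicate to the Su(Hw) replicate of the same number.

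Su(Hw) is a zinc-finger protein that binds DNA directly and was found through the *gypsy* retrotransposon, whose insulator is a cluster of its sites. CP190 carries a BTB domain and zinc fingers and is brought to DNA mainly by partners, among them Su(Hw), BEAF-32, CTCF and M1BP.

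Each peak list gives a region, its fold enrichment (the ratio of pileup at the summit to local background), a −log10 q and the summit, the base of highest pileup. CP190 lists held 9149, 7358 and 8894 peaks and Su(Hw) lists 4153, 4113 and 3863, and the lowest background implied by fold and p was 17.0, 13.8 and 17.8 reads in CP190 libraries and 16.3, 15.3 and 16.2 reads in Su(Hw) libraries. CP190 replicate 2 thus had the shortest CP190 list and the lowest background. Peaks of a protein that overlapped were merged, and a merged region called in each of the 3 libraries was taken as a site, which gave 7116 sites for CP190 and 3758 for Su(Hw). A site was shared when it overlapped a site of the other protein, alone when no library of the other protein had a peak there, and partial when only 1 or 2 libraries had one. Strength is the percentile of a peak's fold within its own list, since folds of different antibodies are not on 1 scale.

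The DNA under the summits is shown first, because the words in it differ in frequency between the classes. Each line gives the nearest gene, the position in dm6 and the strand, and the sequence 5′ to 3′ along the strand of the word in capitals, which is the word searched within 100 bp of the summit. The first 4 are Su(Hw) sites shared with CP190, the 2 strongest with the Su(Hw) word TTGCATAC and the 2 strongest in which that word is followed by T at positions 9 to 11 and G at positions 14 and 15, counted from 1 at the first base in capitals.
lncRNA:CR43431, chr3L:12646271-12646318, minus strand: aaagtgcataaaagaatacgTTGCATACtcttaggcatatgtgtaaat
l(3)80Fj, chr3L:28091366-28091413, minus strand: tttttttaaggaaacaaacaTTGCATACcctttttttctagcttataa
jhamt, chr2L:16374456-16374503, plus strand: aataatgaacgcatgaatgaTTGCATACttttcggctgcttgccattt
Edg84A, chr3R:6683851-6683898, plus strand: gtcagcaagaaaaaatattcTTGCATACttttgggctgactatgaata

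The next 4 are the strongest Su(Hw) sites alone that hold 1 of 2 changed forms of the word, written T2A and A5C (the base of the word, its position, and the base found).
Inx6, T2A, chrX:20266381-20266428, minus strand: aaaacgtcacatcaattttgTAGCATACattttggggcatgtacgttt
lncRNA:CR45579, T2A, chr3R:11108135-11108182, plus strand: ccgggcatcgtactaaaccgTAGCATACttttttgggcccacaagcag
CG42830, A5C, chr2L:17809187-17809234, minus strand: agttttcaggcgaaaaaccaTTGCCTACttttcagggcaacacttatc
CG33667, A5C, chrX:6466739-6466786, minus strand: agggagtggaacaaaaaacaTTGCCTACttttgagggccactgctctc

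The last 6 are the strongest CP190 sites alone with the M1BP word GTGTGACC, the BEAF-32 word TATCGATA and the CTCF-like word AGGTGGCG.
CG11263, M1BP word, chr3L:13006652-13006699, plus strand: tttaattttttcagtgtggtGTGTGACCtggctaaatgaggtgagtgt
QIL1, M1BP word, chr3L:17465921-17465968, minus strand: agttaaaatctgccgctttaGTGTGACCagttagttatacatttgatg
lncRNA:Hsromega, BEAF-32 word, chr3R:21295779-21295826, minus strand: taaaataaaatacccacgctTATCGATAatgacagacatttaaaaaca
CG4364, BEAF-32 word, chr2L:9711388-9711435, minus strand: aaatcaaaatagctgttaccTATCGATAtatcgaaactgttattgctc
nxf4, CTCF-like word, chr3R:7346675-7346722, plus strand: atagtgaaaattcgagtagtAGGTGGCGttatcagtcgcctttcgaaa
CadN, CTCF-like word, chr2L:17784779-17784826, plus strand: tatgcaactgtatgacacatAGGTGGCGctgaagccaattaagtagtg

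Nearly every strong Su(Hw) site had CP190, whereas about 1 in 2 strong CP190 sites had Su(Hw). Of CP190 sites 39.0% were shared (exact 95% binomial interval 37.9 to 40.2%), 0.843% partial and 60.1% alone. Of Su(Hw) sites 75.4% were shared (74.0 to 76.8%), 14.3% partial and 10.2% alone. Counted by peaks, 36.1, 38.6 and 36.7% of CP190 peaks overlapped a Su(Hw) site, against 70.2, 70.4 and 74.4% of Su(Hw) peaks that overlapped a CP190 site. The groups did not overlap, and p = 0.1 in a two-sided exact permutation test is the smallest that 3 against 3 libraries allow (0.16 after Benjamini-Hochberg adjustment over 8 such comparisons). The direction depended on list length: with each list kept to its 3863 strongest peaks, 48.9% of the sites of CP190 and 47.3% of those of Su(Hw) were shared, and the share of peaks was 3.16 percentage points higher for CP190. Without replicate 2 of both proteins, 87.2% of Su(Hw) sites were shared.

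The share of Su(Hw) sites with CP190 increased with strength. Among Su(Hw) sites at a mean percentile of up to 25, 30.1% were shared, and 68.0% were shared between 25 and 50. Above 90, 379 of 379 Su(Hw) sites were shared, and between 75 and 90 it was 587 of 591. Among CP190 sites the share levelled off, with 18.9% shared up to percentile 25, 44.2% between 50 and 75, 50.6% between 75 and 90 and 50.5% above 90. The same shape held in each library, with 27.4, 27.5 and 34.5% of the weakest Su(Hw) peaks and 100% of the strongest in all 3. The strongest Su(Hw) site alone stood at percentile 75.1, and 1 of 381 lay above 75, whereas 981 of 4278 CP190 sites alone did.

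**Figure D1:**
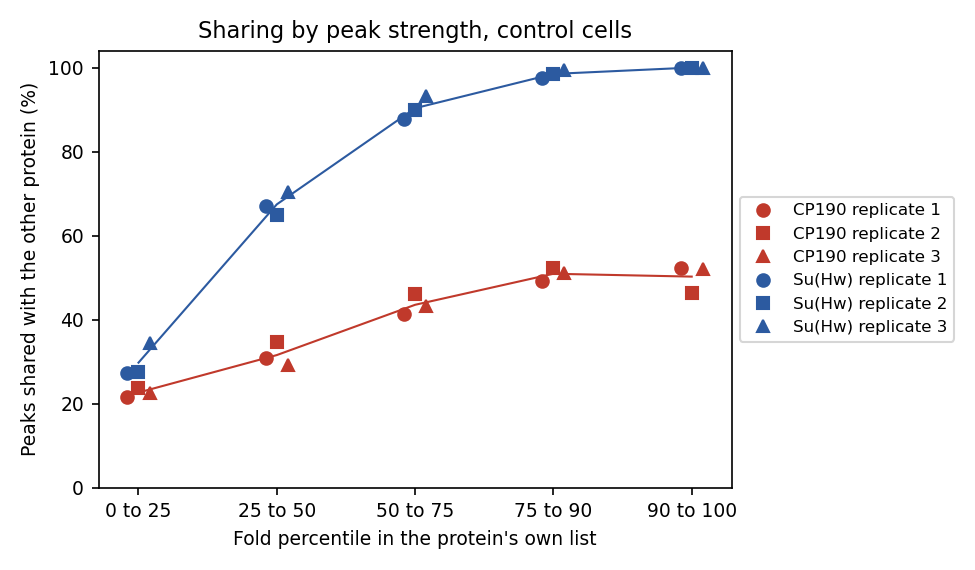
Percent of CP190 peaks (red) and Su(Hw) peaks (blue) that overlapped a site of the other protein, by fold percentile within the protein's own list; symbols are the 3 libraries and lines their means. Su(Hw) peaks reach 100% above percentile 90, CP190 peaks stay between 46.4 and 52.2% there.

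Shared peaks were stronger than peaks alone for both proteins, and more so for Su(Hw). CP190 peaks had a median percentile of 63.2, 60.7 and 63.7 when shared, against 43.2, 42.4 and 42.6 when alone, a difference of 19.8 ± 1.40 percentile points (SD, n = 3 libraries). Su(Hw) peaks stood at 63.6, 63.9 and 62.2 when shared, against 16.1, 16.7 and 15.9 when alone, a difference of 47.0 ± 0.627. Classes did not overlap in either protein, and the sign was the same in 3 of 3 libraries (two-sided exact sign-flip p = 0.25 for each, the smallest that 3 libraries allow). The gap was 27.2 points smaller for CP190 than for Su(Hw), with no overlap of libraries (exact permutation p = 0.1, the smallest possible). With equal lists of 3863 peaks the CP190 difference was 5.26 points and that of Su(Hw) was 51.6.

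Shared peaks were also wider than peaks alone. CP190 peaks had a median width of 619, 516 and 637 bp when shared, against 559, 469 and 575 bp when alone, and Su(Hw) peaks 532, 543 and 498 bp when shared, against 341, 354.5 and 335 bp when alone. The differences were 56.3 ± 8.14 bp in CP190 lists and 181 ± 15.5 bp in Su(Hw) lists, wider when shared in 3 of 3 libraries (exact sign-flip p = 0.25). With equal lists the CP190 difference was 8.67 bp. Within strata of strength the direction varied for CP190: sites between percentiles 25 and 50 had a median width of 522 bp when shared and 573 bp when alone, and sites above 90 had 1085 bp when shared and 997.5 bp when alone. Su(Hw) sites between percentiles 25 and 50 had 463 bp when shared and 459 bp when alone, and between 50 and 75 it was 584 and 581 bp. Over whole lists CP190 peaks were wider, at 575, 488.5 and 593.5 bp, than Su(Hw) peaks, at 472, 484 and 454 bp (exact permutation p = 0.1). The difference was 82.3 bp, against 53.75 bp without replicate 3, 121.25 bp without replicate 2 and 278 bp with equal lists. At sites paired 1 to 1 the groups overlapped, with CP190 medians of 693, 517 and 700 bp and Su(Hw) medians of 536, 548 and 498 bp, CP190 replicate 2 being the narrow one.

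**Figure D2:**
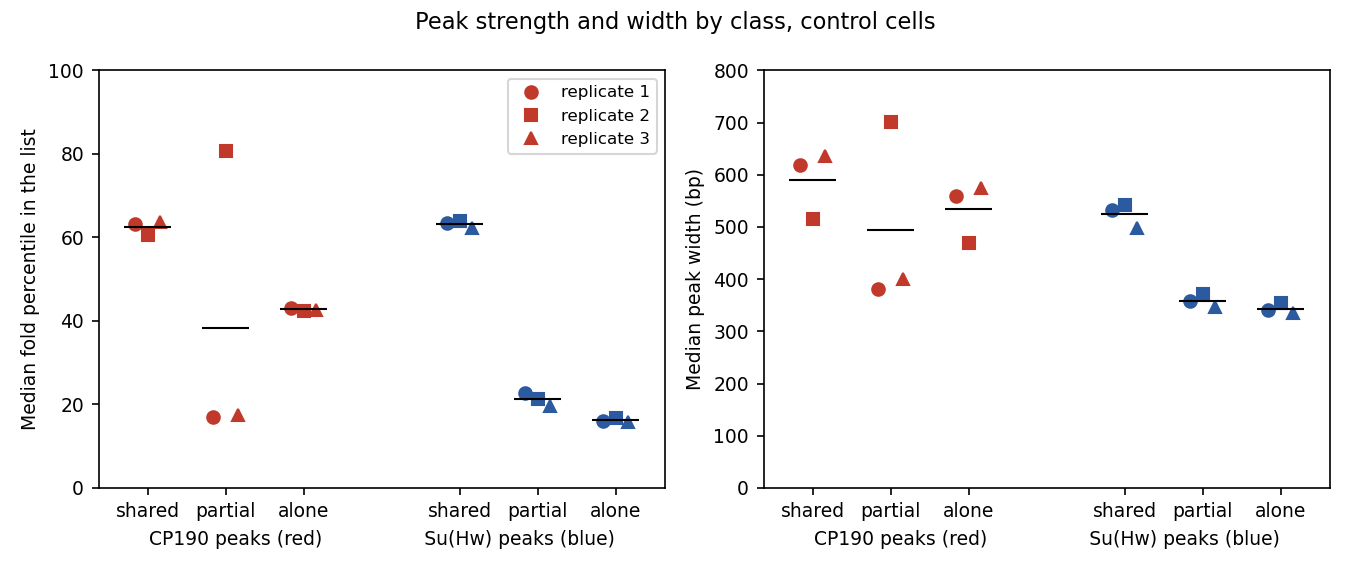
Median fold percentile (left) and median width in bp (right) of CP190 peaks (red) and Su(Hw) peaks (blue) that were shared, partial or alone; symbols are the 3 libraries and bars their means. Su(Hw) peaks alone sit near percentile 16, and the partial class of CP190 replicate 2 (80.7) stands apart from replicates 1 (17.0) and 3 (17.4).

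At shared sites the CP190 and Su(Hw) summits lay close together. Of 2777 shared CP190 sites 2725 were paired 1 to 1 with a Su(Hw) site. Over the 9 pairs of a CP190 and a Su(Hw) library, the median distance between summits was 11 to 12 bp, and 90.4 to 92.5% of paired sites lay within 50 bp. Replicates of 1 protein differed by almost as much, with medians of 10 to 11 bp between CP190 libraries and 9 bp between Su(Hw) libraries, and 96.0 to 96.6% and 97.0 to 97.6% of sites within 50 bp. By the median summit of each protein, 2.61% of paired sites had summits more than 200 bp apart. That share was 4.46% at promoters and 1.03% in introns. Summits lay near the middle of the peaks, at 0.498, 0.496 and 0.498 of the width in CP190 lists and 0.499, 0.498 and 0.5 in Su(Hw) lists (exact permutation p = 0.3). The median summit offset from the peak start was 274, 238 and 283 bp in CP190 lists, against 228, 233 and 222 bp in Su(Hw) lists. Distance from the middle was larger for CP190, at 25.5, 22 and 26 bp, than for Su(Hw), at 18.5, 18.5 and 17 bp (exact permutation p = 0.1), and the difference of 6.5 bp became 15.3 bp with equal lists.

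**Figure D3:**
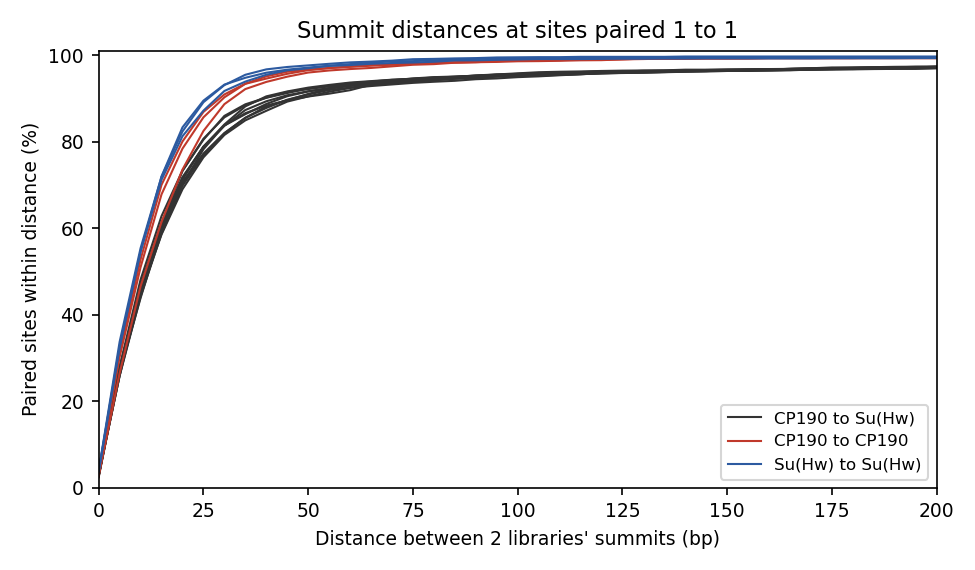
Percent of 2725 paired sites whose summits in 2 libraries lie within the distance on the x axis (bp), for 9 pairs of a CP190 and a Su(Hw) library (dark), 3 pairs of CP190 libraries (red) and 3 pairs of Su(Hw) libraries (blue). The dark curves run below the others at 50 bp, where they lie between 90.4 and 92.5%.

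The strengths of both proteins moved together across paired sites. As a description over 2725 sites that share libraries, Spearman's rho was 0.755 to 0.838 between a CP190 and a Su(Hw) library, 0.905 to 0.965 between CP190 libraries and 0.894 to 0.958 between Su(Hw) libraries. By mean percentiles, rho was 0.811 in introns and 0.877 in exons. The strongest pairs, named by the nearest TSS, lay near *phyl*, an adaptor gene of photoreceptor fate (CP190 fold 19.1, 21.0 and 18.5, Su(Hw) fold 19.7, 20.3 and 19.6), near *RunxA*, a Runt-family factor, and near *CG32369*, *l(3)80Fj* and *CG14621*. The *l(3)80Fj* pair was in intergenic DNA, with its CP190 summit 78842 bp from that TSS. Folds gather near a ceiling: 181, 58 and 166 CP190 peaks and 20, 16 and 14 Su(Hw) peaks lay within 5% of the highest fold of their list, so order at the top is loose.

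A few sites had one protein high and the other low. The largest excess of CP190 was at the promoter of *shakB*, an innexin of gap junctions, with CP190 fold 15.2, 17.2 and 14.004 and Su(Hw) fold 2.66, 3.37 and 2.73. It was followed by sites near *lace* (sphingolipid synthesis), *Syn2* (a syntrophin), *cpo* (an RNA-binding protein) and *Ccp84Aa* (a cuticle protein), where CP190 stood at percentiles 89.6 to 99.7 and Su(Hw) at 1.71 to 17.4. The summits were 57 bp apart at *shakB* and 258, 366, 794 and 683 bp apart at the other 4 sites. The largest excess of Su(Hw) was in an intron on X whose nearest TSS was *tRNA:Phe-GAA-1-1*, with CP190 fold 4.82, 3.08 and 4.11 and Su(Hw) fold 10.2, 10.1 and 7.84. Next came *lncRNA:CR45302*, *Pp1-13C* (a protein phosphatase 1 catalytic subunit), *lncRNA:CR44397* and *Gyc88E* (a guanylyl cyclase). At these 5 sites the summits lay 3 to 7 bp apart. Both sets were chosen by the difference shown, so no test applies.

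Most CP190 sites alone lay in promoters and most Su(Hw) sites alone in introns. Promoters (a TSS and 1500 bp upstream) held 28.2, 28.9 and 28.5% of shared CP190 peaks and 84.2, 87.4 and 84.9% of CP190 peaks alone. Among Su(Hw) peaks, promoters held 28.8, 28.9 and 28.3% when shared and 14.5, 13.7 and 12.2% when alone. Introns held 3.62% of CP190 sites alone and 54.9% of Su(Hw) sites alone. The median distance to a TSS was 2805 bp at shared CP190 sites and 80 bp at CP190 sites alone, and 2787 bp at shared Su(Hw) sites and 5229 bp at Su(Hw) sites alone. A summit within 250 bp of a TSS was found at 219 shared CP190 sites (7.89%), upstream of the TSS at 81.3% of them. It was found at 76.7% of CP190 sites alone, upstream at 88.9% of these and with a median position 54 bp upstream.

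Place and strength were also linked, under a rule that itself depends on width. A site took the first of promoter, exon and intron that any part of it overlapped, so wider sites meet promoters and exons more easily. Shared CP190 sites had a median width of 890 bp in promoters, 835.5 bp in exons and 613.5 bp in introns, and shared Su(Hw) sites 591, 610 and 547 bp. How much of the link comes from width was not tested. Shared CP190 sites had a median percentile of 76.3 in promoters and 75.8 in exons, against 55.3 in introns, and shared Su(Hw) sites 70.1 and 72.4, against 57.8. CP190 sites alone ran differently, at 49.1 in promoters and 71.1 in exons. The promoter share of CP190 sites alone was 68.6% above percentile 90, against 92.5% between 25 and 50. The 5 strongest lay near *Sox21a*, a Sox-family factor (fold 19.2, 21.8 and 18.6), *Osi1* of the Osiris family (19.2, 21.8 and 18.6), *asRNA:CR44106*, *CG15554* and *nxf4*, a gene of the RNA export factor family. Of these only the *nxf4* site was in a promoter, 110 bp from the TSS. The 5 strongest sites with Su(Hw) alone lay near *CG42830* (fold 8.99, 12.9 and 9.93), *Inx6*, an innexin (10.7, 10.1 and 9.69), *CG33667*, *snoRNA:abba-a* and *lncRNA:CR45741*, and none was in a promoter. On the 5 long arms, 35.4 to 40.6% of the CP190 sites were shared, against 73.8 to 77.6% of the Su(Hw) sites. On chromosome 4 it was 8 of 26 for CP190, against 8 of 8 for Su(Hw), and CP190 sites were sparser there (19.3 per Mb against 50.2 to 56.7 per Mb on the long arms).

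The words under the summits differed by class. Words were searched on both strands within 100 bp of each summit, and a match is a description of the letters. TTGCATAC occurred in 23.8% of shared CP190 sites and 0.584% of CP190 sites alone, against 1.06% of all genome windows of that length and 0.560% of windows centred on a TSS. The M1BP word was in 0.396% of shared CP190 sites and 11.9% of CP190 sites alone (4.76% of TSS windows, 0.429% of genome windows). The BEAF-32 word was in 0.541% of shared CP190 sites and 12.9% of CP190 sites alone (5.45% and 0.563% of those windows). At CP190 sites alone in exons and between genes, the CTCF-like word was more frequent than the M1BP and BEAF-32 words, in 6.61% of exonic and 8% of intergenic sites, against 1.78% of promoter sites and 0.487% of genome windows.

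The same forms of the Su(Hw) word occurred at Su(Hw) sites with and without CP190, at different frequencies. TTGCATAC was in 24.4% of shared (690 of 2826), 23.5% of partial and 12.6% of alone (48 of 381) Su(Hw) sites. With 1 mismatch allowed the order turned, with 70.3% of shared and 76.9% of alone sites holding a match (17.6% of genome windows). Each of the 24 single changes was then counted. T2A, TAGCATAC, was in 13.8% of shared sites (95% interval 12.5 to 15.1%) and 30.4% of sites alone (25.9 to 35.3%). A5C, TTGCCTAC, was in 7.78% of shared sites (6.82 to 8.83%) and 24.9% of sites alone (20.7 to 29.6%). Genome windows held them at 0.484% and 0.459%. By library, T2A was in 13.5, 13.6 and 13.8% of shared Su(Hw) peaks and in 25.7, 25.0 and 28.5% of peaks alone, and A5C in 7.61, 7.73 and 7.75% and in 21.0, 21.0 and 24.0%, so the classes did not overlap. Both changes were singled out after these counts were seen, and the 3 libraries largely call the same sites. The differences, shared minus alone, were smaller with equal lists (−5.41 and −5.66 percentage points), where TTGCATAC was in 24.4% of shared and 21.2% of alone Su(Hw) sites. No other single change was in more than 2.89% of sites alone, whereas T1C was in 6.72% of shared sites and 1.57% of sites alone.

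The words were also counted within strata of strength. Up to percentile 25, TTGCATAC was in 16.8% of shared and 18.2% of alone sites, T2A in 10.7% and 23.6%, and A5C in 3.27% and 18.6%. Between percentiles 25 and 50, T2A was in 12.6% of shared and 35.04% of alone sites (41 of 117), A5C in 7.76% and 34.2%, and TTGCATAC in 23.0% and 5.98%. Between 50 and 75, T2A was in 15.4% of shared and 53.5% of alone sites (23 of 43). At least 1 of the 3 words was in 44.9% of shared, 49.9% of partial and 66.9% of alone Su(Hw) sites, and in 123 of the 161 sites alone above percentile 25. Of the 3 words, T2A and A5C were picked for their frequency at sites alone. Read the other way, between percentiles 50 and 75 CP190 was at 96.1% of Su(Hw) sites with TTGCATAC, 79.6% of those with T2A and 77.1% of those with A5C. Above percentile 90 it was at all sites of each kind (79, 56 and 29 sites). Where both proteins were present, CP190 and Su(Hw) stood at like percentiles with each word: the median of its percentile minus that of Su(Hw) was −0.55 at 651 paired sites with TTGCATAC, 0.09 at 366 with T2A and −1.57 at 198 with A5C.

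**Figure D4:**
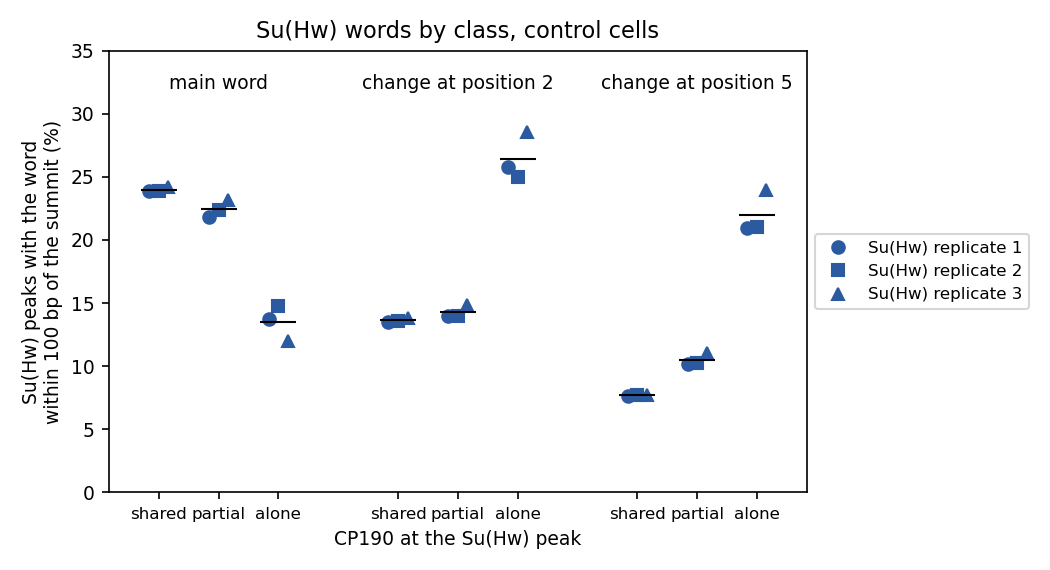
Percent of Su(Hw) peaks with the Su(Hw) word or a form of it changed at position 2 (T2A) or position 5 (A5C) within 100 bp of the summit, by class; symbols are the 3 Su(Hw) libraries and bars their means. Both changed forms are more frequent in peaks alone than in shared peaks, and the main word is less frequent.

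The bases after the word differed as well, and the lines for *jhamt* and *Edg84A* above show the form found mainly at shared sites. At the 671 shared sites with a single TTGCATAC, G was at position 14 in 74.1% and at position 15 in 86.4%, and T was at all of positions 9 to 11 in 64.4%. Over all 7460 matches of the word in the genome, G was at positions 14 and 15 in 25.0 and 30.9%. At sites alone G was at position 14 in 30.4% with TTGCATAC (46 sites) and 30.5% with A5C (95 sites). With T2A, it was at position 14 in 15.8% and at positions 15 and 17 in 96.5 and 93.9% of 114 sites alone. With T2A at 387 shared sites, G was at positions 14, 15 and 17 in 59.2, 85.8 and 56.1%. The run of T with G at positions 14 and 15 followed TTGCATAC at 258 of 671 shared sites (38.5%), 12 of 124 partial sites (9.68%) and 0 of 46 sites alone, a count whose interval reaches 7.71%. After T2A it stood at 121 of 387 shared and 0 of 114 sites alone (interval to 3.18%), and after A5C at 103 of 218 shared and 8 of 95 sites alone. Strength differs between these classes. At or below percentile 50, the extended TTGCATAC was at 26.1% of 188 shared sites and 7.55% of 159 partial or alone sites. In the whole genome 315 matches had the extended form, of which 288 (91.4%) lay in a Su(Hw) site and 276 (87.6%) in a CP190 site, each of the 276 in both. Of all 7460 matches, 14.1% lay in a Su(Hw) site. The extension was picked from these same sites, so these shares describe it and test nothing.

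At paired sites chosen for a Su(Hw) word near the Su(Hw) summit, CP190 summits were also centred near the word. The word had to lie within 100 bp of the median Su(Hw) summit, and no such limit was set on the CP190 summit. At 658 paired sites with a single TTGCATAC, the median distance of the summit from the middle of the word was 11.5, 10.5 and 11.5 bp in CP190 libraries and 10.5, 12.5 and 11.5 bp for Su(Hw) (difference −0.33 bp, exact permutation p = 1). The signed median was 1.5, 0.5 and 1.5 bp in CP190 libraries and 0.5 bp in each Su(Hw) library (exact permutation p = 0.4). The share of summits within 50 bp of the word was 87.7, 89.5 and 87.4% for CP190 and 93.0, 92.4 and 92.7% for Su(Hw). The choice of sites favours Su(Hw) here, so the gap between these shares cannot be read as a difference between the proteins.

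Most genes with Su(Hw) also had CP190, on the same site. Of 18358 annotated genes, 40.0% had a CP190 site within 1 kb of a TSS, 6.91% had a Su(Hw) site and 6.11% had both. The 1121 genes with both are 88.4% of the genes with Su(Hw) and 15.2% of those with CP190, and at 1093 of them an overlapping pair of sites lay within that distance. CP190 was near 46.1% of protein-coding, 43.5% of snoRNA and 19.1% of noncoding RNA genes, whereas Su(Hw) was near 6.91, 4.83 and 7.60% of them. Read against these background shares, cell cycle genes were high in CP190, at 24 of 26 (92.3%, against 40.0% of all genes). Su(Hw) was at 0 of 26, and with 6.91% of all genes a list this short cannot show a lack. The lists were chosen with earlier results of these data known. The cell cycle genes with CP190 included *CycB*, a mitotic cyclin (CP190 fold 12.9, 12.4 and 11.2), *Orc2* of the origin recognition complex (13.2, 12.2 and 12.5) and *Mcm7* of the replicative helicase (11.8, 11.8 and 11.5). Cytoplasmic ribosomal protein genes had CP190 at 77 of 92 (83.7%) and Su(Hw) at 5 of 92 (5.43%, near the share of all genes). Mitochondrial ones had CP190 at 54 of 73 (74.0%) and Su(Hw) at 0 of 73.

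Of the 8 lists, neuronal genes alone had more members with Su(Hw) than with CP190: CP190 was at 9 of 19, Su(Hw) at 11 of 19 and both at 6. The shares of all genes were 40.0% for CP190, 6.91% for Su(Hw) and 6.11% for both. Members and lists were chosen with earlier results of these data known, so the counts describe these 19 genes and test nothing. Genes with both were *Ace* (acetylcholinesterase), *Gad1* (glutamate decarboxylase), *Rbp9*, *Sh* (a potassium channel), *Syt1* (a synaptic vesicle calcium sensor) and *cac*. At *cac*, a calcium channel, CP190 fold was 6.98, 4.71 and 6.49 and Su(Hw) fold 11.7, 10.1 and 9.74. *ChAT* and *VAChT*, which share a first exon, were both counted by the same Su(Hw) site. At that site, and at the Su(Hw) site of *brp*, an active zone protein, only some CP190 libraries had a peak. The genes *nSyb*, a synaptic vesicle protein, and *para*, a sodium channel, had Su(Hw) alone at percentiles 6.84 and 11.1. *Rbp9*, an RNA-binding protein gene that Su(Hw) is known to repress, had 2 CP190 and 3 Su(Hw) sites around the gene, all shared, with the stronger pair at CP190 fold 16.1, 13.5 and 15.6, Su(Hw) fold 14.7, 12.9 and 12.7, and summits 1 bp apart. Hemocyte genes had CP190 at 7 of 18 (38.9%) and Su(Hw) at 1 of 18 (5.56%; *ush*, a GATA cofactor), both near the shares of all genes. Odorant and gustatory receptor genes had CP190 at 14 of 119 (11.8%) and Su(Hw) at 6 of 119 (5.04%), the latter near the share of all genes. Hox genes had CP190 at 1 of 8 (*Abd-B*) and Su(Hw) at 0 of 8, too few to set against those shares. Insulator protein genes had CP190 at 14 of 19 (73.7%) and Su(Hw) at 1 of 19 (5.26%), the latter near the share of all genes. The gene with Su(Hw) was *su(Hw)*, with CP190 fold 9.19, 7.21 and 7.89 and Su(Hw) fold 9.61, 7.42 and 8.70.

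Known insulator loci held shared sites and sites alone. Between *y* and *ac*, where the endogenous 1A-2 insulator lies, 1 site held both proteins at chrX:361167-362451, with CP190 fold 18.6, 19.1 and 18.2, Su(Hw) fold 18.6, 19.2 and 18.2 and summits 3 bp apart. The Bithorax interval from *Ubx* to *Abd-B*, whose domains are bounded by insulators that use CTCF and CP190, had 12 CP190 and 2 Su(Hw) sites. Of the CP190 sites 11 were alone, among them an intronic site of *Abd-B* (fold 18.9, 20.3 and 18.4) and one with *lncRNA:bxd* as its nearest TSS (13.9, 19.95 and 16.2). The shared one, near *lncRNA:CR45750*, had CP190 fold 12.2, 21.9 and 18.6, Su(Hw) fold 11.3, 18.3 and 13.1, and summits 143 bp apart. The other Su(Hw) site, in an intron, had no CP190 site and Su(Hw) fold 7.05, 6.55 and 5.42, at percentile 36.6. At the divergent *aurA* and *CG3281* promoters, the scs′ element of the heat-shock locus, CP190 was alone with fold 8.18, 5.50 and 7.04, at percentile 49.4.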

How the data were processed

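Per the submitters' processing notes and the study's methods, reads went through cutadapt 3.4, Bowtie2 2.4.2 (dm6), SAMtools 1.12 and Picard (duplicates removed), and MACS2 2.2.7.1 made the peak calls with input as control. Each deposited list is labelled with 1 replicate and the 3 lists of a group differ, so each was taken as the calls of 1 library. The methods describe the replicates as entering MACS2 jointly, and whether the lists are independent calls was not tested. The deposited lists give MACS2 values as the authors made them: the fold enrichment as a ratio, −log10 p and −log10 q (9.19 at the lowest in the lists used) and a score, a whole-number form of −log10 q that was not used. Duplicate removal bounds the pileup, which can affect high folds. Depth was judged from the background implied by fold and p. Intervals cover counting error only.

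Peaks were merged per protein at an overlap of 1 bp (Python 3.11.15, numpy 2.4.6, scipy 1.17.1, pandas 2.3.3). Of 37530 peaks, 105 off the major arms entered no analysis of place or words. TSSs came from Ensembl 115, sequences from the RefSeq dm6 assembly, and sites on 2R were passed over when choosing those shown. The 3 CP190 libraries were set against the 3 Su(Hw) libraries by exact permutation, and differences within libraries by exact sign flips, all two-sided. Replicate numbers were not used to pair the samples in these tests between proteins (a replicate block is in the closing section). Sites were named by a rule, the top 5 of each of 5 sets by percentile or difference of percentiles, plus listed loci and gene lists. The members and lists were chosen with earlier results of these data known, and the T2A, A5C and extended words after these sites were seen. The authors' blacklist and 24 other lists were not used here. Scripts were tested on simulated lists.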

Additional observations from a re-analysis of the deposited data

Results flagged for a closer look

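Peaks on the mitochondrial genome were present in every list. They entered no analysis of place or words above, but were not removed from the counts of sharing, strength and width. The 6 lists held 40 such peaks, 13 in the CP190 libraries (5, 1 and 7) and 27 in the Su(Hw) libraries (9, 8 and 10). They were singled out because they lie in data outside the main measurement, and no untreated or mock ChIP list was used to set them against.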

How the results depend on the processing

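Over 26 results and 196 alternative values, 133 moved by no more than 1 SD between libraries (counts: 1.5 times), 59 moved by more and 4 changed sign. Lists of equal length (3863 peaks) reversed the difference in shared percent (3.16) and moved shared percent to 48.9 (CP190) and 47.3% (Su(Hw)), the strength difference to 5.26 and 51.6, the CP190 width difference to 8.67 bp, promoter percent to 37.3 (CP190 shared), 83.6 (CP190 alone), 34.7 (Su(Hw) shared) and 16.5% (Su(Hw) alone), the motif percent to 23.9 (CP190 shared) and 21.2% (Su(Hw) alone), and the differences between proteins to 278 bp in peak width, 15.3 bp in summit position, 35.1 points in promoter percent and −2680 bp in distance to TSS. The T2A and A5C words were added after seeing the data. The summit offset from the motif, −0.33 bp, became 0.5 bp there, 0.75 bp without replicate 2 and 1 bp with the shorter word. Peaks in 2 of 3 libraries gave 84.3% of Su(Hw) sites shared, a difference of −46.2 in shared percent, a Su(Hw) strength difference of 40.8, a Su(Hw) width difference of 152 bp, promoter percent of 28.8 (CP190 shared), 85.6 (CP190 alone) and 27.2% (Su(Hw) shared), and motif percent of 23.5 and 24.0% (CP190 and Su(Hw) shared). The percentile of −log10 q gave strength differences of 13.6 (CP190) and 49.0 (Su(Hw)). Promoters within 1 kb of a TSS gave 32.9 and 31.0% (CP190 and Su(Hw) shared). A window of 250 bp gave motif percent of 26.5 and 1.73% (CP190 shared and alone) and 26.8% (Su(Hw) shared). The word TGCATA gave 46.8 and 9.40% (CP190 shared and alone) and 48.2 and 25.5% (Su(Hw) shared and alone), and 1 mismatch 68.8, 16.5, 70.3 and 76.9%. The middle of the peak in place of the summit gave a distance of 20.3 bp. The cause of these shifts was not tested beyond the construction of each setting.

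Leaving out each replicate in turn gave ranges of 37.3 to 39.4% (CP190) and 72.0 to 87.2% (Su(Hw)) for shared percent, −48.1 to −32.2 for its difference, 41.0 to 47.5 for the Su(Hw) strength difference, 148.5 to 192 bp for the Su(Hw) width difference, 53.75 to 121.25 bp for the difference in peak width, and 11.75 to 12.25 bp for summit distance. Promoter percent ranged over 28.8 to 30.7 (CP190 shared), 85.4 to 87.8 (CP190 alone), 27.0 to 29.0 (Su(Hw) shared) and 12.7 to 14.6% (Su(Hw) alone), motif percent over 23.5 to 23.8, 0.557 to 0.844, 24.0 to 24.4 and 12.5 to 14.2% in the same order, and the summit offset over 0 to 0.75 bp. The differences between proteins with the replicate block had p = 0.25 at the lowest (exact sign flip over 3 pairs, the smallest possible), and the values were unchanged: −34.6 points in shared percent, 82.3 bp in width, 6.5 bp in summit position, 38.5 points in promoter percent, −3012 bp in distance to TSS and −0.33 bp in offset. Correlations of same-numbered deviations were −0.10 to 0.71, against −0.60 to 0.35 for different numbers. Replicates 1 (0.71) and 2 (0.42) lay above every different-numbered value and replicate 3 (−0.10) did not. Whether same-numbered libraries share a preparation was not tested further. Depth limits what "alone" means: a weak peak below the cutoff in all 3 libraries is not told apart from no binding.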
